A study of Mus musculus with 8 samples.

Results

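The genes described here are the matrix metalloproteinases (MMP), the ADAM and ADAMTS proteases, the ADAMTS-like proteins and the tissue inhibitors of metalloproteinases (TIMP), in organoids grown from embryonic mouse hindstomach epithelium. They were taken by gene symbol, with no use of measured values, as all symbols of the count table made of Mmp, Adam, Adamts, Adamtsl or Timp and a number, with at most 1 letter after it. This gave 85 of 53170 named genes, namely 23 MMP, 34 ADAM, 19 ADAMTS, 5 ADAMTSL and 4 TIMP genes. The series has 8 bulk RNA libraries in 2 groups. Controls (n = 4) have the genotype Shh-Cre, in which the Shh locus drives Cre recombinase in foregut epithelium, and YAP5SA organoids (n = 4) have the genotype Shh-Cre;YAP5SA, so both groups carry Cre. YAP5SA is a YAP mutant that Hippo signalling cannot inactivate, and how the transgene is driven is not given in the labels. All were derived from glandular stomach at embryonic day 18.5 and kept for 5 days in growth medium. Whether the libraries of a group came from separate embryos or cultures is not stated, so p-values reflect the spread among libraries alone, and that spread may be technical.

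MMPs cut matrix proteins and other proteins at the cell surface. They are made as inactive precursors, and the membrane-type members are switched on by furin-like convertases and stay anchored to the cell. ADAMs are transmembrane proteins, many of which release the ectodomains of growth factors, receptors and adhesion molecules, while ADAMTS proteases are secreted and cut proteoglycans, procollagens and other matrix proteins. TIMPs bind the active site of these enzymes, each with its own range of targets. In epithelia these genes are known for basement membrane turnover and for the release of ligands of the EGF receptor and of Notch ectodomains.

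The libraries held between 13672268 and 19710648 counts, of which the 85 genes took 0.165% to 0.179% in controls and 0.143% to 0.153% in YAP5SA. CPM below are counts scaled to a common library size, ± is the SD over 4 libraries unless marked SE, and every fold change is YAP5SA over control. Epithelial marker genes summed to 7790 to 8360 CPM in controls and 6510 to 6730 CPM in YAP5SA. Of these 8 genes, 2 were higher in YAP5SA (Epcam and Cldn3), 4 were lower and 2 were not called. By contrast, 11 gastric epithelial genes summed to 2260 to 2430 CPM and to 89.3 to 97.9 CPM, with 10 of them lower in YAP5SA. The 11th, the foregut transcription factor gene Sox2, rose from 30.6 ± 1.7 to 47.6 ± 4.3 CPM, and Gata4 and Gata6 were lower but still at 17.6 ± 2.6 and 18.4 ± 1.5 CPM. The other 8 gastric genes averaged at most 3.53 CPM each in YAP5SA. Genes of other cell types were low. The 14 mesenchymal markers summed to 2.03 to 4.55 CPM in controls and 0.718 to 1.83 CPM in YAP5SA, with none high enough to test and Lum, Twist2 and Barx1 at 0 counts in every library. The summed endothelial, immune and enteric neural markers reached at most 19.7, 39.2 and 11.5 CPM in any control and 3.06, 10.6 and 4.27 CPM in any YAP5SA library. Of the 3 tested endothelial markers, Tek and Esam fell and Tie1 rose, from 0.043 ± 0.053 to 1.65 ± 0.38 CPM. Xist stood at 810.8 ± 170.3 CPM in controls but at 1.37 ± 0.99 CPM in YAP5SA, and 4 genes of the Y chromosome (Ddx3y, Eif2s3y, Kdm5d and Uty) averaged at least 42.4 CPM in YAP5SA and at most 0.0812 CPM in controls, so genotype and sex cannot be told apart in any comparison below. In bulk RNA, fewer cells of a type and less RNA per cell cannot be told apart either.

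Most of the 85 genes were silent or nearly so. In 20 no library had a count, and a further 38 had counts but were too low to test, with at most 0.839 CPM in either group. The 27 tested genes were 7 MMP, 7 ADAM, 7 ADAMTS, 3 ADAMTSL and 3 TIMP genes. Of these, 6 were higher and 14 lower in YAP5SA with a Benjamini-Hochberg adjusted p below 0.05 in edgeR's quasi-likelihood test over all tested genes, and 7 did not pass. Of all 14058 tested genes, 49.1% passed, 23.6% as higher and 25.5% as lower. Changes of at least 2-fold were called as higher in 5 and as lower in 9 of the 27, where 5.26% and 8.59% of all tested genes were called. Groups were fully apart in 19 of the 27, against 45.7% of all tested genes. The median log2 fold change was −0.37 for the 27 genes and 0.00 for all tested genes. A gene that passed the expression filter through 1 group alone was more likely to differ, so these counts describe the tested genes and not the 85.

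**Figure D1:**
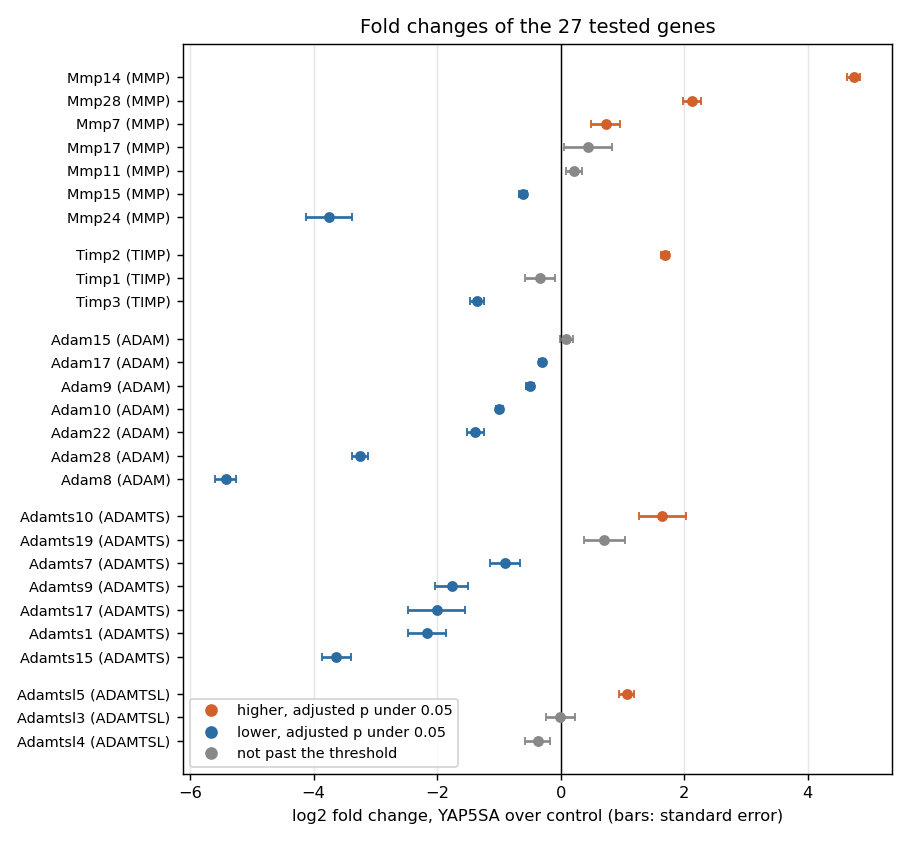
Log2 fold change (x axis, YAP5SA over control) of each of the 27 tested genes (rows, grouped by family), with bars for the standard error. Mmp14 at 4.75 is the highest and Adam8 at −5.43 the lowest, and 6 of the 7 ADAM genes lie below 0.

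Membrane-type MMPs changed in composition. Mmp14 encodes MT1-MMP, a membrane-anchored collagenase that also activates the gelatinase precursor pro-MMP2. It was read at 5.05, 4.60, 7.74 and 6.15 CPM in controls 1 to 4 and at 160.7, 159.0, 158.3 and 159.1 CPM in YAP5SA 1 to 4. The YAP5SA libraries lay within 3 CPM of each other and far above every control. Mmp14 thus rose 27.1-fold (log2 fold change 4.75 ± 0.10 SE, edgeR adjusted p = 3.16e-16). In the same YAP5SA libraries the 14 mesenchymal markers together reached at most 1.83 CPM. Mmp15 encodes MT2-MMP and was the main membrane-type gene of the controls, at 213.3, 193.8, 190.8 and 222.2 CPM. It stood at 128.6, 129.9, 151.2 and 126.4 CPM in YAP5SA, below every control, and fell by 0.61 on the log2 scale (± 0.07 SE, edgeR adjusted p = 4.05e-07). Mmp24 encodes MT5-MMP, known best from neurons, and fell 13.5-fold from 4.80 ± 0.78 to 0.355 ± 0.317 CPM, with no overlap (edgeR adjusted p = 1.49e-07). It shares 13.6% of its exon bases with BC029722 on the other strand, a more abundant gene that also fell, from 36.8 ± 3.3 to 21.3 ± 2.0 CPM, and its part in the fall was not tested. Mmp17, a GPI-anchored member, did not pass the test at 0.808 ± 0.487 and 1.11 ± 0.21 CPM (edgeR adjusted p = 0.364), and it did pass without control 2, its highest control (adjusted p = 0.047). The other 2 membrane-type genes were below the filter, Mmp16 with 2 counts over the controls and 17 over YAP5SA and Mmp25 with 2 and 0. For Mmp16 the ratio of YAP5SA to control was 8.66, with a 95% counting interval of 2.05 to 77.2. In the fit without a filter Mmp16 was called as higher (edgeR adjusted p = 0.0437). Mmp23, an MMP with a type II membrane anchor, had 55 and 9 counts, a ratio of 6.0 with a 95% counting interval of 2.94 to 13.8.

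To compare genes, levels were divided by the joint length of all annotated exons of each gene. Ratios between genes depend on this length, and the transcript expressed may be shorter. Per kb of exon, Mmp15 averaged 38.0 CPM in controls against 24.8 CPM in YAP5SA, and Mmp14 averaged 0.988 against 26.7 CPM. Within a library, Mmp15 was 27.2 to 46.6 times Mmp14 in controls and 0.878 to 1.05 times Mmp14 in YAP5SA. Mmp14 thus went from 2.04% to 3.43% of the membrane-type level per length in controls to 48.4% to 52.9% in YAP5SA. The summed membrane-type level per length moved less, from 40.1 ± 2.8 to 51.8 ± 2.0 CPM per kb, as a description with no test.

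The promoter windows of Mmp14 and of Timp2, the inhibitor that rose most, are shown because these members gained most in level. They are RefSeq windows of build GRCm38.p6, from 250 bases before to 50 after the transcription start, printed 5′ to 3′ with GC boxes (GGGCGG or its complement CCGCCC) in capitals.
Mmp14 promoter, chr14:54431348-54431647, plus strand: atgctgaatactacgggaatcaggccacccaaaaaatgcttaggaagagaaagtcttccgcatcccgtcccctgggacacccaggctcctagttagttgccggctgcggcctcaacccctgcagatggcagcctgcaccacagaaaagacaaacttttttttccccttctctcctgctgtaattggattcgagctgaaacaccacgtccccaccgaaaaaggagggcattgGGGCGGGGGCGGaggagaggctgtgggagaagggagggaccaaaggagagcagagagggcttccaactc
Timp2 promoter, chr11:118355362-118355661, minus strand: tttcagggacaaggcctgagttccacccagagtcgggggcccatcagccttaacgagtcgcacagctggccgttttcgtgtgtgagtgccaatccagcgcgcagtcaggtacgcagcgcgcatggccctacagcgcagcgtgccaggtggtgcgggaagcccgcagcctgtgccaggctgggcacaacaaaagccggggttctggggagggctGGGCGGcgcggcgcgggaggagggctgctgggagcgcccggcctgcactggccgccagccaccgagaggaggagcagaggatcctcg
Mmp14 has a pair of GC boxes, the first bases at −19 and −13 from the start, and Timp2 has a single one at −37. Neither window holds CATTCC, the core of the motif bound by the TEAD partners of YAP, the AP-1 motif TGANTCA, or TATAAA, on either strand. No match says only that these letters are not in this window. CATTCC was found in 14.7% and GGGCGG in 35.7% of the 32851 windows of the table, and in 12.4% and 62.4% of the 12946 windows of tested genes. Among the 21 windows of 20 tested genes of these families that the table lists, 1 held CATTCC (Timp1) and 17 held GGGCGG.

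Of the secreted MMPs, 3 were tested and 2 rose, where 23.6% of all tested genes were called as higher. Mmp28 encodes epilysin, a secreted MMP found in epithelia, and was read at 4.67, 3.63, 3.87 and 3.83 CPM in controls and at 14.4, 20.4, 19.1 and 15.96 CPM in YAP5SA. All YAP5SA libraries were above all controls, and Mmp28 rose 4.37-fold (log2 fold change 2.13 ± 0.14 SE, edgeR adjusted p = 5.13e-10). Mmp28 shares 12.0% of its exon bases with 1700020L24Rik on the other strand, which rose as well, from 0.759 ± 0.388 to 2.75 ± 0.60 CPM, and reads of the pair cannot be told apart without strand. Mmp7 encodes matrilysin, a small MMP of glandular epithelia. It was read at 2.84, 2.004, 2.90 and 1.58 CPM in controls and at 3.69, 4.58, 4.57 and 2.77 CPM in YAP5SA. It rose 1.68-fold (edgeR adjusted p = 0.0155), but YAP5SA 4 lay within the control range. The call was lost without YAP5SA 2 or YAP5SA 3 (edgeR adjusted p = 0.0594 and 0.0519). Mmp11, which encodes stromelysin-3, was read at 7.26, 7.80, 6.57 and 8.85 CPM in controls and at 7.64, 8.45, 9.78 and 9.42 CPM in YAP5SA. The groups overlapped and the test was not passed (edgeR adjusted p = 0.184). It shares 5.58% of its exon bases with Chchd10 on the other strand, which rose from 20.8 ± 2.3 to 36.6 ± 4.6 CPM. The gelatinase genes, which encode enzymes of basement membrane collagen, were close to absent. Mmp2 had 2 counts over the 4 controls and 8 over the 4 YAP5SA libraries, a ratio of 4.07 with a 95% counting interval of 0.813 to 39.4, and Mmp9 had 2 and 0 counts. The substrate of MT1-MMP best known for its activation therefore had almost no counts in libraries where Mmp14 stood near 159 CPM.

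Of the 23 MMP genes, 10 lie together on chromosome 9, among them the collagenase, stromelysin and matrilysin genes. In the table their promoter windows run from chr9:7272264 to chr9:7692390 (GRCm38.p6). Mmp7 alone was tested, 4 had no count in any library, and none of the rest had more than 7 counts in all. A textbook feature of this group is an AP-1 motif next to a TATA box. Of the 12 windows of these genes, 8 held TGANTCA (66.7%) and 9 held TATAAA (75.0%), against 7.81% and 13.6% of all windows. None of the 12 held a GC box or CATTCC. The windows belong to related neighbouring genes, so they are not independent, and the shares were not tested. The stretches around the AP-1 match (capitals) are given because the same motif stands before the expressed Mmp7 and the silent genes.
Mmp7, chr9:7692011-7692049, plus strand: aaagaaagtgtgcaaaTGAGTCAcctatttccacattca
Mmp1a, chr9:7464052-7464090, plus strand: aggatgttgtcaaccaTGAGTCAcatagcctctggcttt
Mmp1b, chr9:7388097-7388135, minus strand: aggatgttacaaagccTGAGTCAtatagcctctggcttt
Mmp3, chr9:7445760-7445798, plus strand: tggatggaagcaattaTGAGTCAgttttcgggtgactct
Mmp10, chr9:7502263-7502301, plus strand: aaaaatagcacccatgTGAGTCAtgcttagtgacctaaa
Mmp12, chr9:7347314-7347352, plus strand: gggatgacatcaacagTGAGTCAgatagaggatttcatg
Mmp13, chr9:7272463-7272501, plus strand: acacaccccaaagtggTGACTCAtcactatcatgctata
Mmp20, chr9:7628120-7628158, plus strand: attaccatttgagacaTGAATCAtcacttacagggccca
The match began at −63 in Mmp7, and between −95 (Mmp20) and −35 (Mmp13) in the other 7. It read TGAGTCA in 6 of the 8, TGACTCA in Mmp13 and TGAATCA in Mmp20. In YAP5SA, Mmp1a, Mmp3, Mmp10, Mmp12 and Mmp20 had 0 counts, Mmp1b had 1 and Mmp13 had 2.

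**Figure D2:**
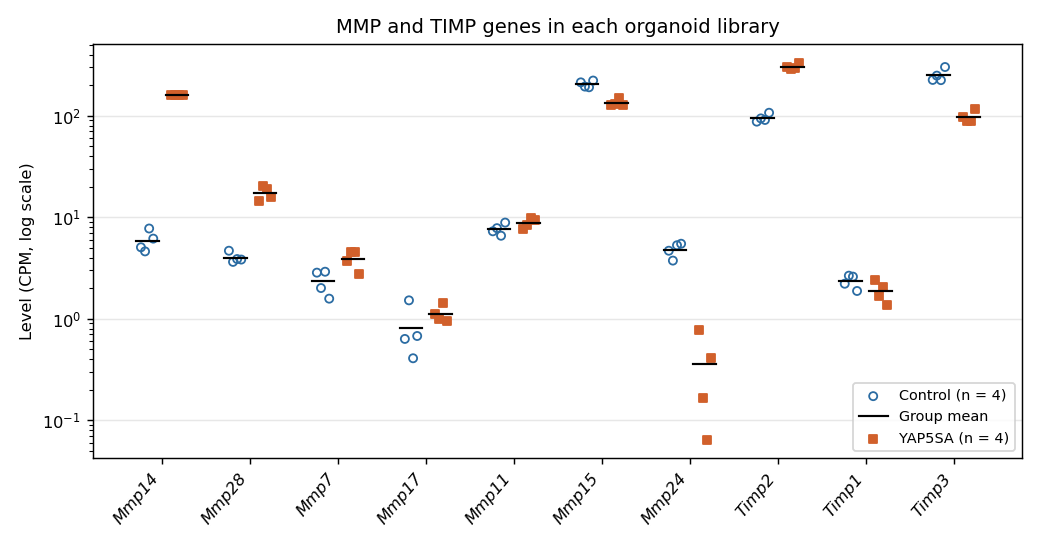
Level in CPM (y axis, log scale) of the tested MMP and TIMP genes in each library, with open circles for the 4 controls, filled squares for the 4 YAP5SA libraries and bars for group means. Mmp14, Mmp28 and Timp2 are higher in every YAP5SA library than in any control, and Mmp15, Mmp24 and Timp3 are lower.

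The TIMP genes changed in opposite directions. Timp2 encodes a soluble inhibitor that also forms the docking complex for pro-MMP2 on MT1-MMP. It was read at 87.5, 94.1, 90.9 and 107.0 CPM in controls and at 299.7, 291.8, 295.4 and 332.3 CPM in YAP5SA, with a wide gap between the groups. Timp2 rose 3.21-fold (log2 fold change 1.69 ± 0.07 SE, edgeR adjusted p = 2.87e-13). Timp3 encodes the matrix-bound member, whose targets include ADAM17 and ADAMTS proteases. It fell from 225.4, 248.4, 224.3 and 302.1 CPM in controls to 96.4, 87.9, 89.1 and 116.8 CPM in YAP5SA. Library 4 was the highest of each group, the groups did not overlap, and the fall was 2.56-fold (log2 fold change −1.36 ± 0.11 SE, edgeR adjusted p = 1.29e-06). Timp3 lies within Syn3 on the other strand and shares 21.3% of its exon bases with it, and Syn3 had only 1.66 ± 0.28 and 2.11 ± 0.37 CPM. Timp1, the X-linked member and a weak inhibitor of membrane-type MMPs, was read at 2.21, 2.65, 2.60 and 1.88 CPM in controls and at 2.40, 1.66, 2.06 and 1.35 CPM in YAP5SA. The groups overlapped and the test was not passed (edgeR adjusted p = 0.273). Timp4 had 6 counts over the controls and 0 over YAP5SA. With the YAP5SA group set at a floor of 3 counts in all, the ratio of control to YAP5SA was 1.96. This ratio leaves out the counting error of the 6 control counts, so it is no lower limit. In the fit without a filter Timp4 was not called (edgeR adjusted p = 0.0892).

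Per kb of exon, Timp2 was below Timp3 in every control, at 0.740 to 0.847 times its level, and above it in every YAP5SA library, at 5.95 to 6.94 times. Timp2 thus made up 41.2% to 43.4% of the TIMP level per length in controls and 84.1% to 85.5% in YAP5SA. Against Mmp14, Timp2 was 18 to 31.3 times as high per length in controls and 2.81 to 3.20 times in YAP5SA. Timp3 was 21.2 to 39.5 times Mmp14 in controls and 0.404 to 0.537 times Mmp14 in YAP5SA. Both inhibitors therefore stood closer to the protease in YAP5SA, and Timp3 fell below it. These ratios are of transcript levels, depend on the exon lengths used and were not tested.

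**Figure D3:**
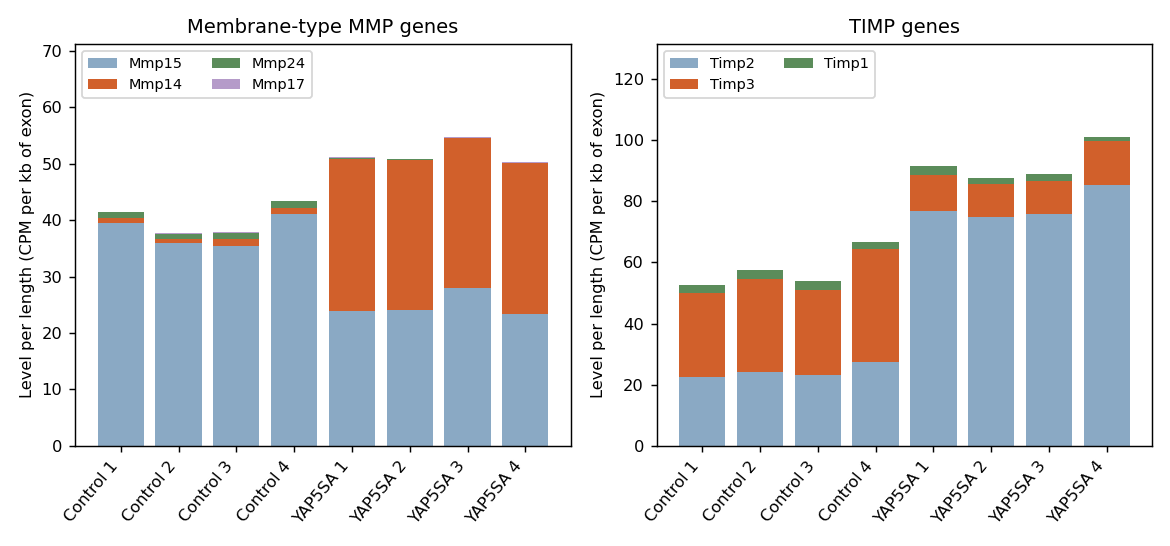
Level per length (y axis, CPM per kb of exon) of the membrane-type MMP genes (left) and the TIMP genes (right), stacked for each of the 8 libraries. Mmp14 is a thin band in controls and about as large as Mmp15 in YAP5SA, and Timp2 takes the place of Timp3 as the larger part of the TIMP bar.

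The main sheddase genes fell together. Adam9 and Adam10 had the highest levels per length of all 84 genes with a known exon length in controls, and both were lower in YAP5SA, as was Adam17. Adam10 encodes the protease that cuts Notch receptors and E-cadherin. It was read at 385.0, 335.2, 348.3 and 375.6 CPM in controls and at 170.8, 189.1, 194.5 and 172.1 CPM in YAP5SA, well apart. The fall was 1.99-fold (log2 fold change −0.99 ± 0.06 SE, edgeR adjusted p = 1.47e-10). Adam17 encodes TACE, which frees TNF and several EGF receptor ligands. It fell less, from 184.2, 182.2, 193.3 and 175.5 CPM to 142.7, 148.8, 158.1 and 148.3 CPM. The groups did not overlap, and the fall was 1.23-fold (edgeR adjusted p = 9.59e-05). Adam9, a widely expressed sheddase gene, had the highest level per length of the family and went from 447.1, 452.1, 431.5 and 473.8 CPM to 339.2, 300.6, 286.8 and 355.7 CPM. All YAP5SA libraries were below all controls, a 1.41-fold fall (edgeR adjusted p = 3.86e-06). Per kb of exon, Adam10 was 2.62 to 3.12 times Adam17 in controls and 1.69 to 1.85 times in YAP5SA. Adam15, which encodes an ADAM of epithelial and endothelial cells, did not pass at 33.5 ± 3.9 and 35.7 ± 5.1 CPM (edgeR adjusted p = 0.478). Summed over all 34 ADAM genes, the level went from 1100 ± 31 CPM to 695.5 ± 15.1 CPM, with no test.

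Among the 7 tested ADAM genes, the steepest falls were in 2 genes known best from blood cells. Adam8 was read at 34.9, 33.6, 40.2 and 35.9 CPM in controls and at 0.906, 0.773, 1.29 and 0.412 CPM in YAP5SA. It fell 42.8-fold (log2 fold change −5.43 ± 0.17 SE, edgeR adjusted p = 1.41e-14). Adam28 was read at 23.5, 24.96, 23.8 and 22.7 CPM in controls and at 2.27, 2.60, 3.22 and 1.94 CPM in YAP5SA. It fell 9.47-fold (log2 fold change −3.25 ± 0.13 SE, edgeR adjusted p = 6.08e-13), and the controls of both genes were tightly grouped. Among 8 immune markers, the pan-leukocyte gene Ptprc averaged 0.514 CPM over controls against 0.390 CPM over YAP5SA, and Adgre1, Itgam, Cd3e and Cd79a had at most 0.121 CPM in either group. Cd68 fell with Adam8, from 28.6 ± 8.0 to 7.88 ± 1.15 CPM, and Csf1r rose, from 0.191 ± 0.074 to 1.49 ± 0.60 CPM. The myeloid gene Lyz2 was below the filter, with 55 counts over the controls and 20 over YAP5SA, and its groups did not overlap. The summed immune markers ranged from 19.8 to 39.2 CPM in controls and from 9.89 to 10.6 CPM in YAP5SA, and Cd68 made up most of these sums. The part of these markers in the falls was not tested. Adam22 encodes a protein without protease activity, known as a receptor of LGI1 in the brain, and was read at 8.08, 9.10, 8.09 and 9.68 CPM in controls and at 3.37, 3.42, 3.15 and 3.42 CPM in YAP5SA. The YAP5SA libraries were close together and below all controls, a 2.62-fold fall (edgeR adjusted p = 1.79e-07). Its inactive relative Adam11 was below the filter, with 46 counts over the controls and 4 over YAP5SA, a ratio of 11.3 with a 95% counting interval of 4.12 to 43.2. Of the other 26 ADAM genes below the filter, many of them known from testis, 12 had no count. Adam5, a testis gene, had 22 counts over the controls and 3 over YAP5SA.

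**Figure D4:**
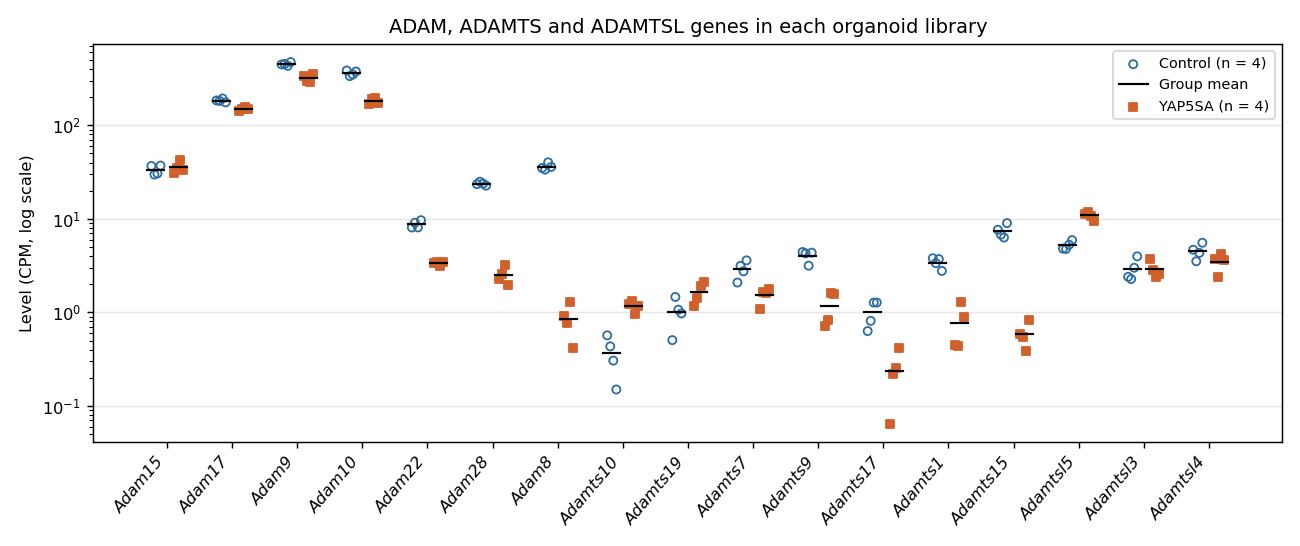
Level in CPM (y axis, log scale) of the tested ADAM, ADAMTS and ADAMTSL genes in each library, with open circles for the 4 controls, filled squares for the 4 YAP5SA libraries and bars for group means. Adam8, Adam28 and Adamts15 drop furthest, and Adamtsl5 and Adamts10 are higher in every YAP5SA library than in any control.

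The ADAMTS genes were low throughout, with a summed level of 21.7 ± 1.3 CPM in controls and 8.65 ± 1.62 CPM in YAP5SA over the 19 genes. Of 7 tested, 5 fell, 1 rose and 1 did not pass. Of all tested genes, 25.5% were called as lower and 23.6% as higher. The versican- and aggrecan-cleaving group has 7 genes, of which 3 were tested and fell and 4 were below the filter. Of the 3, Adamts15 and Adamts1 had under 10 counts in some YAP5SA libraries and passed the filter through the controls, which favours a fall. Adamts15 was read at 7.64, 6.77, 6.31 and 9.001 CPM in controls and at 0.583, 0.552, 0.386 and 0.825 CPM in YAP5SA, a fall of 12.7-fold (log2 fold change −3.63 ± 0.24 SE, edgeR adjusted p = 4.70e-10). Adamts1 was read at 3.79, 3.36, 3.72 and 2.78 CPM in controls and at 0.453, 0.442, 1.29 and 0.883 CPM in YAP5SA, a 4.45-fold fall (edgeR adjusted p = 1.16e-05). Adamts9 fell from 4.05 ± 0.60 to 1.19 ± 0.48 CPM. None of these 3 genes overlapped between groups, as was so for 45.7% of all tested genes. Adamts5, the aggrecanase of cartilage, was below the filter and went the other way, with 3 counts over the controls and 30 over YAP5SA, a ratio of 10.2 with a 95% counting interval of 3.17 to 52.1. Adamts4, of the same group, had 24 counts in each.

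Adamts7, which cuts cartilage oligomeric matrix protein, was read at 2.08, 3.14, 2.75 and 3.60 CPM in controls and at 1.10, 1.66, 1.61 and 1.77 CPM in YAP5SA. The fall was 1.89-fold (edgeR adjusted p = 0.00563) with no overlap between groups. Its overlapping partner Tbc1d2b, with which it shares 1.94% of its exon bases, rose. Adamts10 and Adamts17, both linked to fibrillin microfibrils and to Weill-Marchesani-type syndromes in people, changed in opposite directions at low levels. Adamts10 rose from 0.364 ± 0.179 to 1.18 ± 0.15 CPM and Adamts17 fell from 0.998 ± 0.327 to 0.239 ± 0.143 CPM. Adamts19 had 1.003 ± 0.393 and 1.66 ± 0.44 CPM and did not pass (edgeR adjusted p = 0.0842), and it did without control 2 (adjusted p = 0.0399). The procollagen N-propeptidase genes Adamts2, Adamts3 and Adamts14 were all below the filter. Adamts3 had 36 counts over the controls and 2 over YAP5SA, a ratio of 17.7 with a 95% counting interval of 4.55 to 152.0.

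The ADAMTS-like proteins lack a protease domain and bind microfibrils and other matrix. Adamtsl5, whose product binds fibrillin, was read at 4.80, 4.77, 5.29 and 5.93 CPM in controls and at 11.4, 11.8, 10.7 and 9.54 CPM in YAP5SA. It rose 2.09-fold (log2 fold change 1.07 ± 0.13 SE, edgeR adjusted p = 1.71e-06), with no overlap. Adamtsl4 was read at 4.67, 3.52, 4.33 and 5.55 CPM in controls and at 3.69, 2.37, 4.18 and 3.65 CPM in YAP5SA. Adamtsl3 was read at 2.40, 2.27, 3.003 and 3.98 CPM in controls and at 3.69, 2.87, 2.38 and 2.59 CPM in YAP5SA. Both overlapped between groups and neither passed (edgeR adjusted p = 0.142 and 0.992).

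Genes that activate, anchor or accompany these proteases moved in both directions. Of 25 such genes 20 were tested, and 6 were higher and 10 lower, where 23.6% and 25.5% of all tested genes were called. The median log2 fold change was −0.37. Pcolce, the enhancer of procollagen C-proteinases, rose 11.5-fold from 19.0 ± 1.7 to 217.7 ± 17.6 CPM, and Thbs1 (thrombospondin 1) rose from 693.3 ± 59.03 to 1190 ± 25 CPM. The tetraspanin gene Cd151 rose by a log2 fold change of 0.31. Plat, the tissue plasminogen activator gene, fell from 122.4 ± 3.2 to 39.8 ± 4.4 CPM, and the syndecan gene Sdc1 fell from 630.0 ± 37.0 to 328.6 ± 6.3 CPM. The convertase gene Pcsk6 fell from 279.5 ± 29.5 to 138.9 ± 3.2 CPM. Furin, a convertase that activates membrane-type MMPs, had 42.6 ± 7.8 and 35.9 ± 1.7 CPM and did not pass (edgeR adjusted p = 0.0635), and neither did Reck, a membrane inhibitor of MMPs, at 1.53 ± 0.62 and 1.005 ± 0.445 CPM. Both were named after their values were seen.

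Among 13 tested regulators of ADAM10 and ADAM17, 3 were higher and 5 lower (23.6% and 25.5% of all tested genes), with a median log2 fold change of −0.05, and without control 1 or YAP5SA 1 the lower ones numbered 3. The paired iRhom genes, whose products carry ADAM17 to the cell surface, parted. Rhbdf1 rose from 23.3 ± 1.4 to 45.0 ± 2.0 CPM (edgeR adjusted p = 4.74e-09) and Rhbdf2 fell from 35.2 ± 4.9 to 24.2 ± 1.5 CPM (edgeR adjusted p = 0.000128). Frmd8, which stabilises iRhoms, fell from 48.5 ± 6.2 to 34.5 ± 1.7 CPM. Of the TspanC8 tetraspanins, which escort ADAM10, Tspan15 fell from 64.3 ± 4.1 to 36.0 ± 5.5 CPM and Tspan33 rose from 11.9 ± 2.2 to 17.4 ± 1.5 CPM. Tspan5, Tspan17 and Tspan14 did not pass, and Tspan14 was the highest of the group, at 111.8 ± 4.1 and 116.3 ± 2.3 CPM. Sh3d19, an ADAM-binding adaptor gene, rose by a log2 fold change of 0.41.

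Of 30 tested genes of shed surface proteins, 10 were higher and 14 lower, against 23.6% and 25.5% of all tested genes (median log2 fold change −0.07). Ephb4 fell from 40.9 ± 3.4 to 4.38 ± 0.28 CPM, the EGF receptor ligand gene Btc from 26.9 ± 1.5 to 8.38 ± 0.73 CPM and the adhesion gene Icam1 from 9.98 ± 1.91 to 1.62 ± 0.43 CPM. Met, the HGF receptor gene, rose from 137.6 ± 12.4 to 189.5 ± 8.8 CPM, Epcam by a log2 fold change of 0.40 and Il1r2 from 0.526 ± 0.153 to 2.04 ± 0.28 CPM. Of 30 matrix substrate genes 14 were tested, of which 5 were higher and 8 lower, beside 23.6% and 25.5% of all tested genes (median log2 fold change −0.20). Col4a1 and Col4a2, the main chains of basement membrane collagen, rose 5.20-fold and 6.60-fold, to 584.6 ± 13.2 and 998.6 ± 9.2 CPM, and the third gene named by the same rule was Thbs1. The osteopontin gene Spp1 dropped from 961.8 ± 30.8 to 13.8 ± 2.6 CPM, the basement membrane linker gene Nid1 from 13.6 ± 2.2 to 0.883 ± 0.164 CPM and Fn1 from 248.4 ± 36.1 to 76.1 ± 4.2 CPM. The interstitial collagens Col1a1, Col1a2 and Col3a1 were below the filter, at most 0.801 CPM.

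**Figure D5:**
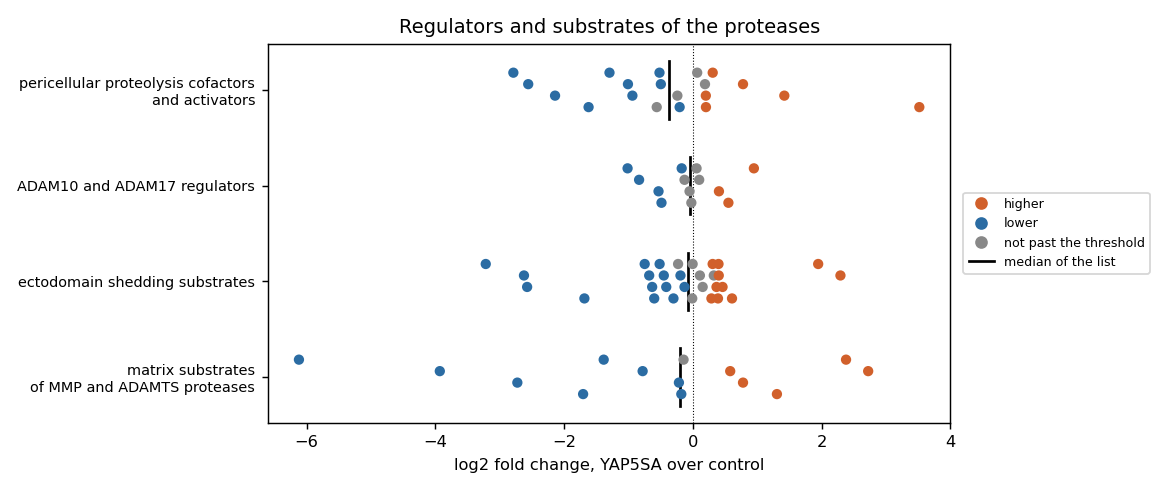
Log2 fold change (x axis, YAP5SA over control) of each tested gene in the 4 lists of regulators and substrates (rows), with points coloured by call and a black bar at the median of each list. All 4 lists spread to both sides of 0, with medians between −0.37 and −0.05.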

How the data were processed

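The authors deposited raw read counts per gene symbol for the 8 libraries, which are whole numbers and not normalized. Total RNA was sequenced as paired-end reads, per the labels' protocols, and cutadapt, HISAT2 2.0.1, HTSeq 0.6.1 and the build mm9 are named in the submitters' processing notes. Annotation, counting options and strand setting: not given in the sources used here, so reads of overlapping or antisense genes, and of near-identical copies such as Mmp1a and Mmp1b, cannot be told apart. Unnamed rows (2639 of 56691, 0.190% to 0.221% of counts) were left out, and rows that share a symbol were summed.

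Genes were filtered with filterByExpr of edgeR 4.0.16 (minimum count 10, minimum total 15) in R 4.3.3, scaled by TMM and tested over all 14058 genes by glmQLFit (robust) and glmQLFTest in a model of genotype alone, calls being made at a Benjamini-Hochberg adjusted p under 0.05. The SE of a log2 fold change is its size over the root of the F statistic. Levels per length use the exon union of the GENCODE annotation on GRCm38, not the authors' build, and matched 84 of the 85 genes. Counting intervals are exact 95% intervals, which cover counting error only. The floor of 3 counts covers the counting error of the group without counts alone. On simulated data with known changes for this comparison (14003 genes tested), 70.1% of 1.5-fold, 92.5% of 2-fold and 100% of 4-fold changes were recovered. In that run 10 unchanged genes were called. Changes were set in far fewer genes than were called in the real data, and in none of the lowest levels. Recovery at those levels was not measured.

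The symbol rule for the members used no measured values. The rule and the lists were still set with earlier results of these data known. Genes given in every library were the 6 highest and 6 lowest fold changes among called genes with a group mean of at least 5 CPM (4 genes rose there), the 3 of each family with the highest CPM per kb, and Mmp2, Mmp7, Mmp9, Mmp14, Mmp15, Adam10, Adam17 and the TIMP genes whatever their change. Mmp2, Mmp9 and Timp4 are given as totals. In lists, the 3 smallest adjusted p in each direction are named. Other names, the GC and TATA box motifs and the class names were chosen after values were seen. Promoter windows are from RefSeq, which lists 54 of the 85 genes.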

Additional observations from a re-analysis of the deposited data

Results flagged for a closer look

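Of 54 groups of 4 libraries (the 27 tested genes in each group), 2 held a library that stood apart from the other 3 by Dixon's 95% criterion, and chance alone flags about 1 in 20 groups. Adamts9 was at 3.16 CPM in control 3 and between 4.28 and 4.42 CPM in the other controls. Mmp15 was at 151 CPM in YAP5SA 3 and between 126 and 130 CPM in the other YAP5SA libraries. Both genes kept their call without that library.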

How the results depend on the processing

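Of the 27 tested genes, 22 kept direction and call under all 14 alternatives that gave them a value: DESeq2 size factors, scaling by library size, no filter on low counts, a minimum count of 30, the DESeq2 Wald test, the replicate block and leaving out each library. The exceptions were Mmp7, Mmp17 and Adamts19, as given above, Adamtsl3 and Adam15. Adamtsl3 changed sign near 0, with log2 fold changes of 0.026 by library size, 0.016 without a filter, 0.002 at a minimum count of 30 and −0.14 to 0.17 with a library left out. Adam15 ran from −0.011 to 0.15 with a library left out, negative without YAP5SA 3 alone. The cause was not tested. A minimum count of 30 left Mmp17, Adamts10, Adamts17 and Adamts19 without a value. Scaling by library size shifted the median of all genes by 0.03.

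Genes of the families called as higher and lower numbered 6 and 14, and 5 to 8 and 14 to 15 with a library left out. Without a filter they numbered 8 and 18 of 65 genes, beside 3803 and 3808 of all 27156 genes with a count. Of genes below the filter, that fit called Mmp16 and Adamts5 as higher and Adam5, Adam11, Adamts3 and Mmp23 as lower. The lower regulators of ADAM10 and ADAM17 numbered 5, but 3 at an adjusted p of 0.01, 3 without control 1 or YAP5SA 1, and 3 to 5 over all libraries left out in turn. Libraries that share a number in their titles did not deviate together (correlations −0.08 to 0.09), so the replicate block shares only a number. It gave 6 and 14 in the families and 3192 and 3394 over all genes, against 3315 and 3584. The 38 genes with counts below the filter had too few counts for the main test, and 23 of them had at most 10 counts in all. The part of sequencing depth in this was not tested.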
